A study of Mus musculus with 11 samples.

Results

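Follicle-stimulating hormone (FSH) acts on cells through a receptor that raises cyclic AMP (cAMP), and 10 genes along that route were followed in the liver of FSH-treated mice: the gonadotropin receptors Fshr and Lhcgr, the glucagon receptor Gcgr, the G protein subunits Gnas and Gnai2, the kinase subunit Prkaca, the transcription regulators Creb1, Crem and Crtc2, and the phosphodiesterase Pde4b. They were chosen by name for their place in the route, and all 10 were found among the 36788 gene identifiers of the table. Of the 10, 8 had reads and could be tested, among 12733 genes tested in all, and the other 2, Fshr and Lhcgr, had no read in any library.

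The samples were livers of wild-type C57BL/6 female mice more than 12 weeks old, 5 treated with FSH and 6 with saline. Every animal had been ovariectomized (OVX) and fed a high fat diet, so the controls carried both of these as well. FSH was given by daily intraperitoneal injection. Whole liver was treated with papain before total RNA was taken, so each library mixes the liver's cell types. The FSH livers carry the numbers 1, 2, 3, 4 and 6 in the labels and the saline livers 1 to 6. Each library held between 10801891 and 19909327 reads counted on genes. Levels are given as CPM, the reads of a gene per 1000000 reads counted, and differences as the mean log2(CPM + 0.5) of FSH livers minus that of saline livers, a scale on which changes of low genes are understated. A gene was called changed where limma's moderated test gave it an adjusted p under 0.05, with the adjustment made over all genes tested. The p-values measure the spread between these livers. In whole tissue, fewer cells of a type and less RNA per cell cannot be told apart.

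FSH and luteinizing hormone bind the receptors FSHR and LHCGR, which are best known from the ovary and testis. Both receptors couple to the stimulatory G protein Gs, which drives adenylate cyclase to make cAMP. cAMP frees the catalytic subunit of protein kinase A (PKA), which phosphorylates CREB on the promoters of target genes, and phosphodiesterases end the signal by breaking cAMP down. Hepatocytes use the same route for glucagon, which raises genes of gluconeogenesis during fasting through CREB and its coactivator CRTC2. The question put to the data was whether any part of a direct FSH to cAMP route could be seen in the liver.

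CREB binds the cAMP response element, in full TGACGTCA, or its short form, TGACG, which reads CGTCA when it lies on the other strand. The following stretches are shown because they hold such letters upstream of a gene whose level is described below. They come from RefSeq promoters on GRCm38.p6, are written 5′ to 3′ in the direction of the gene, and carry the element in capitals.
Pde4b: gatttggctgcaCGTCAattttctcatct
Pck1: gcctgccccttaCGTCAgaggcgagcctc
Fos: agttccgcccagTGACGtaggaagtccat
Junb: gcttcctgacagTGACGcgagccgcctcc
Dusp1: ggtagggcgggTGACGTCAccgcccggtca
The Pde4b stretch lies at chr4:102421509-102421537 on the plus strand, and its element begins 34 bases before one of the gene's 4 RefSeq starts. The Pck1 stretch lies at chr2:173152971-173152999 on the plus strand, with the element 90 bases before the start. The Fos stretch is at chr12:85473812-85473840 on the plus strand and the element begins 66 bases before the start. For the genes on the minus strand, Junb is shown at chr8:84978838-84978866 with the element 106 bases upstream, and Dusp1 at chr17:26508597-26508626 with the full element 143 bases upstream.
Over the 250 bases before the start, searched on both strands, 17.8% of 32851 promoters held the short form and 1.55% the full element, which contains the short form on each strand and is counted in both. RefSeq promoters were used for 7 of the 10 genes. Of their 14 promoters, 5 held the short form, which belonged to Gnas, Prkaca and Pde4b, and 0 held the full element. The Gnas windows that begin at chr2:174327499 and chr2:174327518 overlap and hold the same site, which is counted for each. These matches describe letters in a window and not binding.

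Neither gonadotropin receptor was detected in liver RNA. Fshr (ENSMUSG00000032937) lies at chr17:88984952-89200675 of GRCm38 on the minus strand, and Lhcgr (ENSMUSG00000024107) at chr17:88716481-88791990 on the same strand. Each had 0 reads in 11 of 11 libraries, FSH and saline alike. A count of 0 still allows up to 3 reads, which is between 0.151 CPM in the deepest library and 0.278 CPM in the shallowest. These limits cover counting error only. Per kilobase of exon the limit was at most 0.118 CPM for Fshr and 0.0363 CPM for Lhcgr. No read was also the state of 16180 of the 36788 identifiers, so absence of reads was common in the table. Expression of either receptor in a rare cell type, below these limits, was not detectable at this depth.

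The glucagon receptor, which couples to the same G protein, showed what an expressed Gs-coupled receptor looks like in these livers. Gcgr (ENSMUSG00000025127, chr11:120530699-120538986, plus strand) had 168, 186, 154, 170 and 171 CPM in FSH livers 1, 2, 3, 4 and 6, and between 169 and 246 CPM in the saline livers with a median of 178 CPM. The groups overlapped, and 1 saline liver, number 4, was well above all others. On average FSH livers had 169.8 ± 11.3 CPM and saline livers 189.4 ± 29.4 CPM (SD, n = 5 and 6), and the log2 difference was -0.15 with a 95% interval from -0.36 to 0.07 (limma adjusted p = 0.399). Without saline liver 4 it was -0.07. In each library the level of Gcgr per kilobase of exon was at least 557.1-fold above the limit for Fshr and at least 1805-fold above the limit for Lhcgr. The predicted gene Gm11789 lies over Gcgr on the opposite strand, and whether strand was used in counting is not given in the sources used here.

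**Figure D1:**
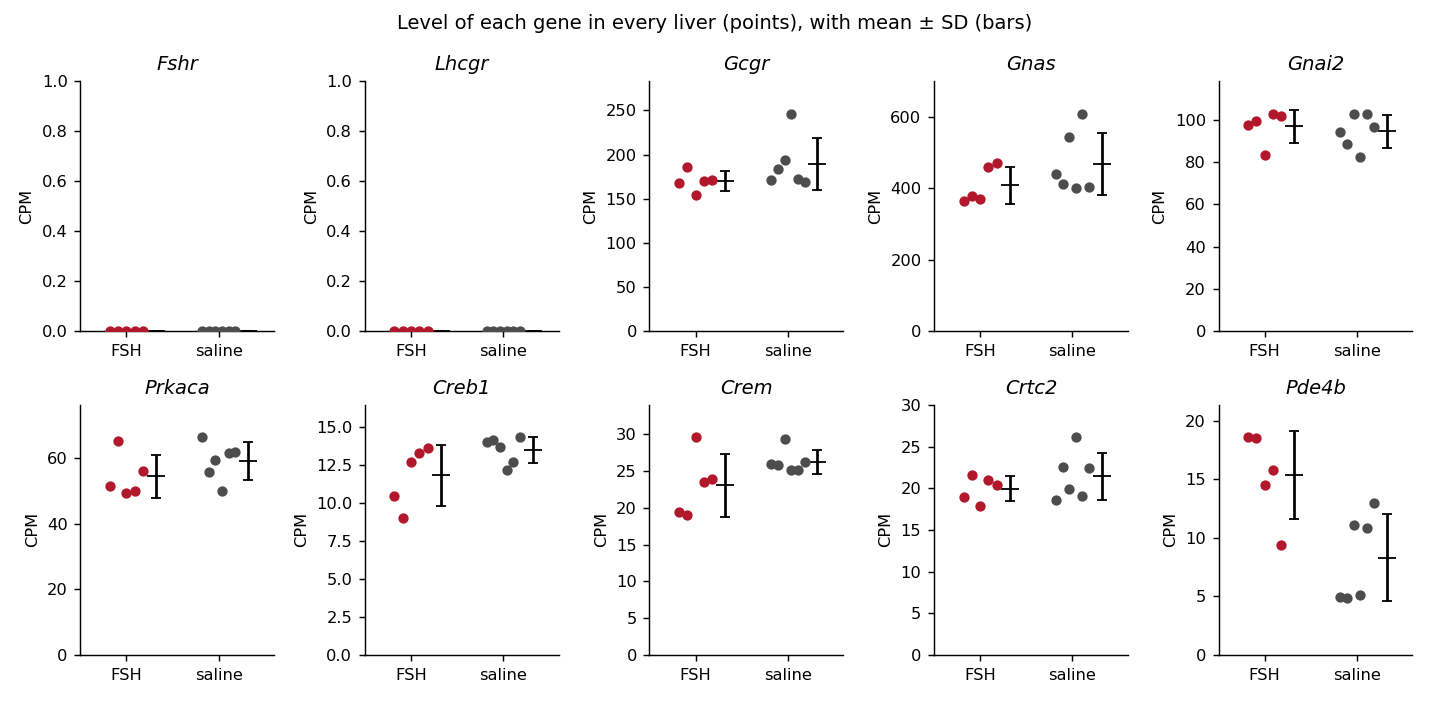
Level in CPM (vertical axis, from 0) of each of the 10 genes in the 5 FSH livers and 6 saline livers, with 1 point per liver and the mean ± SD beside the points. Fshr and Lhcgr sit at 0 in all 11 livers, and the Pde4b points of 4 of the 5 FSH livers lie above every saline liver, while the groups overlap for each of the 8 genes with reads.

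The G proteins that carry or oppose the signal were both abundant and neither was called changed. Gnas encodes the stimulatory alpha subunit and is an imprinted locus with several transcripts (ENSMUSG00000027523, chr2:174284320-174346744, plus strand). It had 366, 378, 370, 461 and 470 CPM in the FSH livers and between 401 and 610 CPM in the saline livers, with a median of 425 CPM. FSH livers 1, 2 and 3 were below all saline livers, and the other 2 lay among them. On the log2 scale the difference was -0.18 (95% interval from -0.45 to 0.08, limma adjusted p = 0.396), and without saline liver 5 it was -0.10. Nespas and Gm20721 overlap Gnas on the opposite strand and 3 predicted genes overlap it on its own strand, so its reads cannot be assigned to 1 transcript.

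Gnai2, at chr9:107614125-107635367 on the minus strand, encodes an inhibitory alpha subunit that restrains adenylate cyclase. Its levels were 97.3, 99.1, 83.4, 102.8 and 101.8 CPM with FSH and from 82.4 to 102.4 CPM with saline, with a median of 95.4 CPM. FSH liver 3 was the low one of its group and lay near the lowest saline livers, and the groups overlapped almost entirely. FSH minus saline came to 0.04 in log2 (95% interval from -0.14 to 0.22, limma adjusted p = 0.831), and with a library left out it ran from 8.7e-05, without saline liver 4, to 0.09, without FSH liver 3. The log2 ratio of Gnas to Gnai2 within each library, added after the values had been seen, was 2.07 ± 0.14 (SD, n = 5) with FSH and 2.29 ± 0.176 (SD, n = 6) with saline, a difference of -0.22 that missed 0.05 (two-sided exact permutation test, p = 0.0584).

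Prkaca encodes the main catalytic subunit of PKA in liver and lies at chr8:83972993-83996443 on the plus strand. It had 51.4, 65.3, 49.4, 49.99 and 56.2 CPM in the FSH livers and from 49.99 to 66.4 CPM in the saline livers, with a median of 60.6 CPM. FSH liver 2 was near the top of the saline range and the other 4 were below the saline median. The log2 difference was -0.12 (95% interval from -0.33 to 0.08, limma adjusted p = 0.483), and without FSH liver 2 it was -0.19.

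The regulators at the end of the route were lower on average in FSH livers by amounts that did not pass the test. Creb1 (chr1:64532645-64604548, plus strand), the founding member of the CREB factors, had 10.4, 8.998, 12.7, 13.3 and 13.6 CPM with FSH and from 12.2 to 14.3 CPM with saline, with a median of 13.8 CPM. FSH livers 1 and 2 were below every saline liver and the other 3 lay within the saline range. The means were 11.8 ± 1.99 and 13.5 ± 0.866 CPM (SD, n = 5 and 6), a log2 difference of -0.20 (95% interval from -0.44 to 0.04, limma adjusted p = 0.305). Without FSH liver 2 it was -0.11.

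Crem (chr18:3266048-3337748, minus strand) encodes activating isoforms and the repressor ICER, which the gene counts do not separate. It had 19.4, 19.0, 29.6, 23.4 and 23.9 CPM in FSH livers and from 25.1 to 29.4 CPM in saline livers, with a median of 25.9 CPM. FSH liver 3 was above every saline liver and the other 4 were below them all. FSH minus saline came to -0.20 in log2 (95% interval from -0.43 to 0.04, limma adjusted p = 0.286). The predicted gene Gm6225 overlaps Crem on the opposite strand.

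Crtc2 (chr3:90254163-90264125, plus strand), the coactivator through which glucagon raises gluconeogenic genes, had 18.9, 21.5, 17.9, 20.99 and 20.3 CPM with FSH and from 18.6 to 26.1 CPM with saline, with a median of 21.2 CPM. FSH liver 3 was below every saline liver, FSH liver 2 was just above the saline median, and the others lay between. FSH minus saline was -0.10 on the log2 scale (95% interval from -0.31 to 0.12, limma adjusted p = 0.617), and it was -0.04 without saline liver 4 and -0.06 without FSH liver 3. For Gcgr, Gnas, Gnai2, Prkaca, Creb1, Crem and Crtc2, every 95% interval ended inside 2-fold in both directions, and a p that misses the threshold does not show that the groups were alike.

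Pde4b, which encodes a cAMP-specific phosphodiesterase and lies at chr4:102087543-102607259 on the plus strand, was the 1 gene of the set called changed. It had 18.6, 18.5, 14.5, 15.8 and 9.38 CPM in FSH livers 1, 2, 3, 4 and 6. The saline livers had 4.98, 4.87, 11.1, 5.10, 10.8 and 13.0 CPM in the order of their numbers. Thus 4 of the 5 FSH livers were above the highest saline liver and 5 of 5 were above the saline median, while FSH liver 6 lay below 3 saline livers, so the groups overlapped. The means were 15.4 ± 3.78 CPM (SD, n = 5) and 8.31 ± 3.72 CPM (SD, n = 6). Converted from the log2 difference, and not from these means, the level was 1.89-fold higher with FSH (95% interval from 1.28-fold to 2.81-fold). The log2 difference was 0.92 with a standard error of 0.27 (limma adjusted p = 0.0392), and the two-sided exact permutation test, run on each of the 8 genes and not adjusted, gave p = 0.0303 for Pde4b and from 0.0844 to 0.617 for the other 7, where 0.00216 is the smallest p that 462 splits can give. These levels rested on 60 to 370 reads per library.

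The call on Pde4b was near its threshold. Without FSH liver 1, 2, 3 or 4 the limma adjusted p became 0.105, 0.0875, 0.0761 or 0.0796, and without saline liver 1, 2 or 4 it became 0.0763, 0.0737 or 0.0774. The direction was higher with FSH in each of these fits and the log2 difference stayed between 0.80 and 0.93. It passed 2-fold without FSH liver 6 or saline liver 3, 5 or 6, with the call kept. The call was also lost without the filter on low values (adjusted p = 0.0785) and without the intensity trend (adjusted p = 0.0565). The other PDE4 genes, named for comparison after their values were seen, were not called: Pde4a had 1.99 CPM with FSH and 2.39 CPM with saline, Pde4c 7.90 and 6.99 CPM, and Pde4d 2.50 and 2.02 CPM. Relative to the mean of these 3 in the same library, Pde4b was at a log2 ratio of 1.98 ± 0.365 (SD, n = 5) with FSH and 1.14 ± 0.716 (SD, n = 6) with saline, and the difference of 0.84 missed 0.05 (two-sided exact permutation test, p = 0.0520). With the Gnas ratio these were 2 ratios, and the Benjamini-Hochberg adjusted p was 0.0584 for both.

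**Figure D2:**
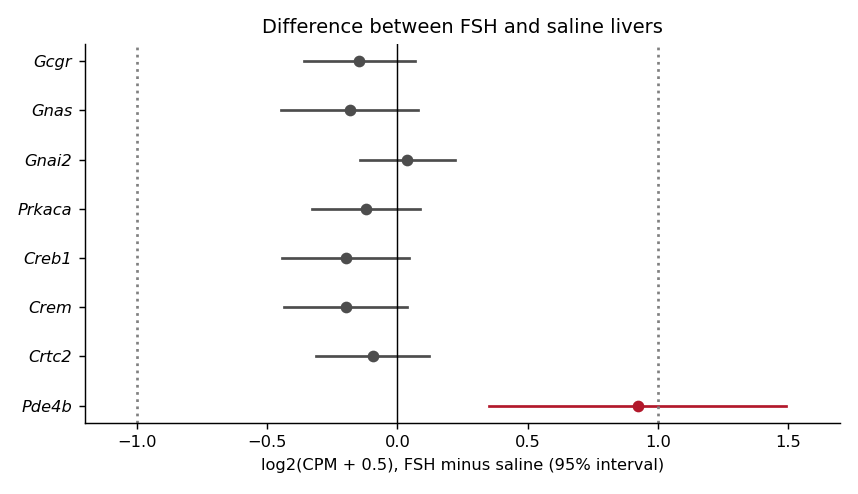
Difference in mean log2(CPM + 0.5) between FSH and saline livers (horizontal axis) for the 8 tested genes, with 95% intervals from limma and dotted lines at 2-fold. Pde4b, in red, is the 1 gene called at an adjusted p under 0.05, and the intervals of the other 7 include 0.

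In counts, 1 of the 8 tested genes was called, against 10.6% of all genes tested. The same 1 of 8 was called higher with FSH (6.19% of all genes) and 0 of 8 were called lower (4.41% of all genes). Past both an adjusted p of 0.05 and 2-fold there were 0 of 8 (1.83% of all genes), and for 0 of 8 were the groups without overlap (6.67% of all genes). At an unadjusted p under 0.05 there was also 1 of 8 (25.1% of all genes), and edgeR's quasi-likelihood test on the recovered reads called the same gene, Pde4b (log2 difference 0.86, adjusted p = 0.0444). The median log2 difference of the 8 was -0.13, beside 0.02 for all genes tested, with 2 higher and 6 lower. A share of 1 in 8 is near the background share.

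Among the 8 genes with reads, levels per kilobase of exon were highest for Gcgr and lowest for Pde4b and Creb1. The mean over 11 livers was 68.9 CPM per kilobase for Gcgr, 39.5 for Gnas, 25.3 for Gnai2 and 22.9 for Prkaca. Crtc2 followed with 5.07 CPM per kilobase, Crem with 4.21, Pde4b with 1.09 and Creb1 with 0.926. The ranges over livers of Gnai2 and Prkaca overlapped, as did those of Crtc2 and Crem and of Pde4b and Creb1, while the other neighbours in this order did not overlap. The order of the last pair turned by group: Pde4b had 1.45 CPM per kilobase with FSH and 0.787 with saline, and Creb1 had 0.859 and 0.982. Exon length was merged over all annotated transcripts of a gene, which lowers the value of a gene with long or alternative exons.

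The cell types of the tissue were read from marker lists. Hepatocyte markers summed to between 113250 and 133970 CPM in the FSH livers and between 110270 and 140740 CPM in the saline livers. All 8 macrophage and Kupffer cell markers were lower on average with FSH, 1 of them (Cd68) called against 4.41% of all genes called lower, and their sum was between 111.2 and 303.6 CPM with FSH and between 182.5 and 360.3 CPM with saline. All 8 stellate cell markers were also lower on average, 1 of them (Hand2) called against the same 4.41%, with sums of 215 to 297 CPM and 245 to 339 CPM. Pde4b is known to be expressed in myeloid cells, and here it was higher with FSH while the macrophage markers were lower. Within the saline group, livers 3, 5 and 6 had the higher Pde4b levels and macrophage sums of 287, 339 and 360 CPM, and livers 1, 2 and 4 had 182, 261 and 328 CPM. In FSH livers 1, 2, 3, 4 and 6 the macrophage sums were 221, 164, 111, 304 and 224 CPM. Pde4b in those livers was at 18.6, 18.5, 14.5, 15.8 and 9.38 CPM, so the saline pattern was not seen there. The part of cell composition in the Pde4b difference was not tested.

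**Figure D3:**
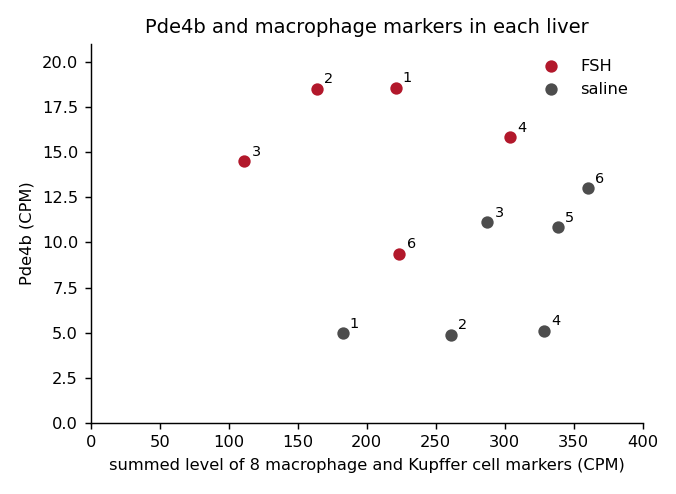
Pde4b level (vertical axis, CPM) against the summed level of 8 macrophage and Kupffer cell markers (horizontal axis, CPM) in each liver, numbered as in the labels. FSH livers 1, 2, 3 and 4 lie above every saline liver in Pde4b, and FSH liver 3 has the lowest marker sum, 111.2 CPM.

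Lymphocyte markers summed to at most 10.2 CPM with FSH and 12.6 CPM with saline, and neutrophil markers to at most 2.41 and 3.32 CPM with Ly6g at 0. Endothelial sums ran from 120.4 to 179.4 CPM and from 140.4 to 166.1 CPM, cholangiocyte sums from 10.8 to 14.2 CPM and from 10.7 to 12.9 CPM, and erythroid sums from 335 to 579 CPM and from 297 to 748 CPM. Called markers among these were Lyve1, lower, 1 of 6 endothelial markers (4.41% of all genes called lower), and Krt7, higher, 1 of 5 cholangiocyte markers (6.19% of all genes called higher). Of the 8 hepatocyte markers 3 were higher and 5 lower on average, with a median log2 difference of -0.13, and Fgb and Hnf4a, 2 of 8, were called lower, against 4.41% of all genes. Adipocyte markers were at most 0.129 CPM and ovary markers at most 0.351 CPM with FSH and 0.648 CPM with saline.

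Livers whose values deviated together were described for each tested gene by the Pearson correlation of log2(CPM + 0.5) deviations from the group means over the 11 livers. The genes most alike were Sult5a1 (r = 0.915) and Slc25a47 (0.91) for Gcgr, Hdac8 (0.925) and Mdfi (0.915) for Gnas, and Hk1 (0.924) and Tbxas1 (0.905) for Gnai2. For Prkaca they were Nf1 (0.959) and Rtn3 (0.914), for Creb1 Clip3 (0.917) and Dagla (0.889), for Crem Hmgn3 (0.938) and Rps7 (0.901), and for Crtc2 Pitpnm2 (0.929) and Cdk2 (0.921). For Pde4b they were Kank1 (0.951) and Tlr2 (0.949). The values share library and depth, and the pairs were picked as the highest of 12733 genes.

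The remaining genes of the route were taken from lists by role, and 78 of 129 listed genes could be tested. Of these, 35 were higher and 43 lower with FSH on average, the median log2 difference was -0.01, and 2 were called, both higher, against 10.6% of all genes called. At an unadjusted p under 0.05 there were 11 of the 78, against 25.1% of all genes tested. Adrb1, Pde1b and Prkar2b, counted among the lower genes, had 0.443, 0.469 and 0.442 CPM with FSH. They passed the filter of 0.5 CPM only through the saline group, where they were higher.

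Hormones and receptors at the start of the route gave no call. Of 39 other Gs-coupled receptors, 17 had no read and 9 could be tested. Of these 9, 2 were higher, 7 were lower and 0 passed the test, against 10.6% of all genes. At an unadjusted p under 0.05 there was 1, against 25.1% of all genes, and the median was -0.19. The 2 most abundant were Vipr1, a receptor for vasoactive intestinal peptide, with 27.4 CPM with FSH and 32.2 CPM with saline, and Pth1r, a parathyroid hormone receptor, with 14.6 and 13.3 CPM. Among the glycoprotein hormone subunits and the thyrotropin receptor, Tshr, Fshb and Gphb5 had no read. Cga, the alpha subunit shared by FSH, LH and TSH, had 12 reads over all libraries and Gpha2 had 2. None of that group could be tested.

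Of the other G protein subunits, 17 were tested, 11 higher and 6 lower, and 1 passed, against 10.6% of all genes. Gng12, a gamma subunit, had 49.07, 49.42, 49.95, 49.09 and 49.60 CPM in the FSH livers and from 31.0 to 46.0 CPM in the saline livers. All FSH livers were above all saline livers. The groups were without overlap for 1 of these 17 genes and for 6.67% of all genes, and the FSH values lay close together. The means were 49.4 ± 0.370 CPM (SD, n = 5) and 39.2 ± 4.85 CPM (SD, n = 6), a log2 difference of 0.34 with a standard error of 0.09 (limma adjusted p = 0.0293). Without FSH liver 1, 2, 3 or 4 or saline liver 2 the adjusted p was 0.0685, 0.0548, 0.0644, 0.0614 or 0.0518.

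None of 9 receptor kinases, arrestins and adaptors passed, against 10.6% of all genes. At an unadjusted p under 0.05 in limma's test there was 1, against 25.1% of all genes. Grk2, which uncouples activated receptors, had 25.1 CPM with FSH and 27.4 CPM with saline, and Arrb2, an arrestin, 12.9 and 13.4 CPM. All 7 adenylate cyclases tested were lower on average, by log2 differences from -0.78 to -0.0022, beside 5860 lower among all 12733 genes tested. Of the 7, 0 passed (10.6% of all genes) and 0 reached an unadjusted p under 0.05 (25.1% of all genes). Their median was -0.21, and the most abundant, Adcy6 and Adcy9, differed by -0.15 (limma adjusted p = 0.568) and -0.35 (limma adjusted p = 0.487). Adcy6 was at -0.29 without FSH liver 2 and -0.10 without FSH liver 1, and Adcy9 at -0.16 without saline liver 2 and -0.21 without FSH liver 3.

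PKA subunits, inhibitors and anchors and the EPAC genes gave 18 tested genes, 9 higher and 9 lower, with 1 call, against 10.6% of all genes. Pkig, a protein inhibitor of PKA, had 20.9, 20.4, 19.5, 20.1 and 20.2 CPM in the FSH livers and from 13.7 to 18.5 CPM in the saline livers. The groups did not overlap, which held for 1 of these 18 genes and 6.67% of all genes. The means were 20.2 ± 0.526 and 16.1 ± 1.79 CPM (SD, n = 5 and 6), a log2 difference of 0.33 with a standard error of 0.09 (limma adjusted p = 0.0357). The call was lost in edgeR's test (adjusted p = 0.0561), with either scaling between libraries, and without FSH liver 1, 2, 3 or 4 or saline liver 2, 3, 5 or 6, where it was at most 0.0949.

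Among the other cAMP phosphodiesterases, 10 were tested, 6 higher and 4 lower, and 0 passed limma's test, with or without adjustment of the p. Of all genes, 10.6% passed with the adjustment and 25.1% without it. Pde3b, which insulin activates to lower cAMP, had 76.9 CPM with FSH and 66.2 CPM with saline. Pde8a had 29.3 and 26.5 CPM. Of 8 CREB relatives, coactivators and SIK kinases, 3 were higher, 5 lower and 0 passed (10.6% of all genes). At an unadjusted p under 0.05 there was 1 (25.1% of all genes). Sik1, a kinase that restrains CRTC2, ranged from 8.27 to 54.6 CPM in the saline livers and had a log2 difference of 0.67 (limma adjusted p = 0.274), which was 0.40 without saline liver 6. Sik3 had 39.0 and 40.5 CPM.

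**Figure D4:**
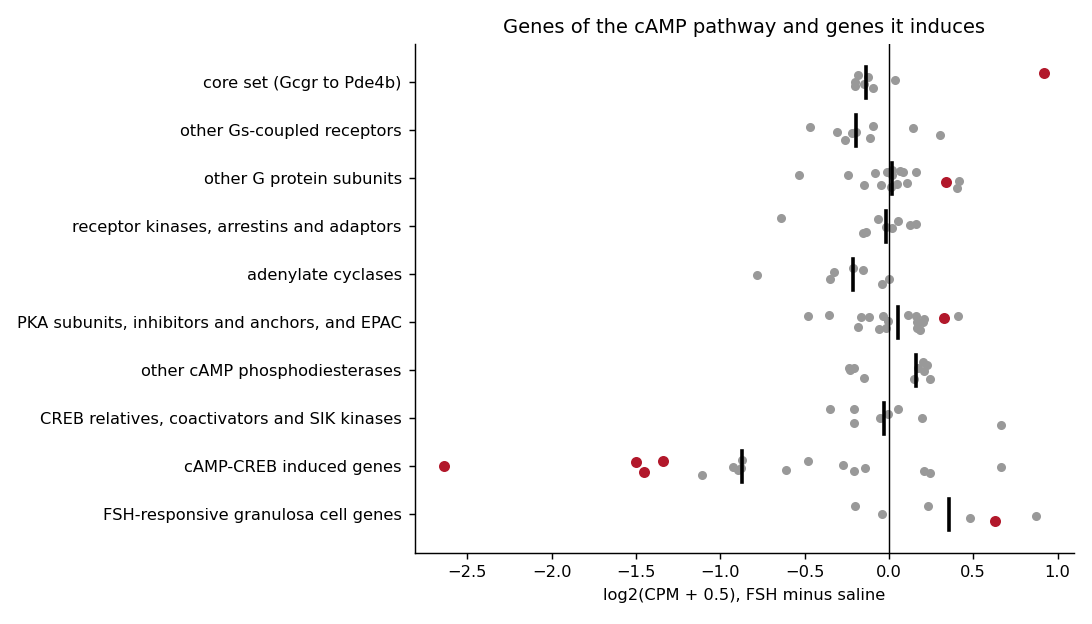
Difference in mean log2(CPM + 0.5) between FSH and saline livers (horizontal axis) for each tested gene of each list, with genes at an adjusted p under 0.05 in red and the list's median as a black bar. The core set is the 8 tested genes from Gcgr to Pde4b. The calls of the route are Pde4b, Gng12 and Pkig, all to the right of 0, and those of the genes that cAMP and CREB induce are 4 genes to the left of 0.

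Genes that cAMP and CREB are known to raise were lower on average in the FSH livers. Of 19 listed genes 17 were tested, 14 of them lower and 3 higher, with a median log2 difference of -0.87 beside 0.02 for all genes tested. Among the lower genes, Fosb had 0.349 CPM with FSH and 1.12 CPM with saline. It passed the filter of 0.5 CPM only through the group where it was high. Igfbp1, Fos, Junb and Irs2 were called, all 4 lower and all 4 past 2-fold, against 4.41% of all genes called lower and 1.83% called past 2-fold. For 2 of the 17 the groups did not overlap, against 6.67% of all genes. Such genes are known to answer to insulin, stress and growth factors as well as to cAMP. The paper reports that FSH injections lowered plasma corticosterone, a glucocorticoid hormone, in ovariectomized mice on this diet. It also reports that liver genes raised by glucocorticoids were lower with FSH. The part of glucocorticoids in the direction of this list was not tested. The list was written with earlier results of these livers known, so its direction is not independent evidence.

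Igfbp1, a secreted binder of insulin-like growth factors that fasting raises and insulin lowers, had 60.5, 153.6, 177.2, 139.9 and 143.5 CPM in the FSH livers and from 156.3 to 659.7 CPM in the saline livers. FSH liver 3 was above the lowest saline liver, number 6, and the other 4 were below all saline livers. FSH minus saline was -1.50 on the log2 scale with a standard error of 0.33 (limma adjusted p = 0.0093). Irs2, the insulin receptor substrate that CREB raises in fasted liver, had 3.32, 8.998, 1.30, 3.49 and 3.42 CPM with FSH and from 5.48 to 16.7 CPM with saline. FSH liver 2 lay within the saline range. On the log2 scale the difference was -1.45 with a standard error of 0.35 (limma adjusted p = 0.0168).

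The immediate early genes Fos and Junb, subunits of the AP-1 factor, were low and even in the FSH livers and scattered in the saline livers. Fos had 1.76, 3.10, 3.40, 3.10 and 2.98 CPM with FSH and 11.7, 9.02, 85.0, 52.4, 35.0 and 3.55 CPM in saline livers 1 to 6. The groups did not overlap, although saline liver 6 was just above the highest FSH liver. The log2 difference was -2.63 with a standard error of 0.60 (limma adjusted p = 0.0121). Junb had 26.7, 20.3, 18.6, 21.1 and 19.8 CPM with FSH and 27.7, 40.5, 98.1, 88.9, 94.4 and 27.5 CPM with saline, again without overlap. On the log2 scale the difference was -1.34 with a standard error of 0.32 (limma adjusted p = 0.0162). In both genes, saline livers 3, 4 and 5 held the high values.

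Pck1, a gluconeogenic enzyme gene long studied for its cAMP response element, and Dusp1, whose promoter held the full element shown above, were named after their values were seen. Pck1 had 1763 CPM with FSH and 3155 CPM with saline, a log2 difference of -0.87 that did not pass the test (limma adjusted p = 0.123). Dusp1, a MAP kinase phosphatase, had 76.7 and 159.3 CPM, a log2 difference of -0.88 (limma adjusted p = 0.120). Dusp1 was called lower in edgeR's test and without saline liver 6, and Pck1 without saline liver 6. RefSeq promoters were matched for 16 of the 19 listed genes. Of their 17 promoters, 11 held the short form and 1, that of Dusp1, the full element, against 17.8% and 1.55% of all promoters. The genes were listed as known to answer to CREB, so a share above that of all promoters is not independent evidence. Of the 4 called genes, Fos and Junb held the short form in this window and Igfbp1 and Irs2 did not.

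**Figure D5:**
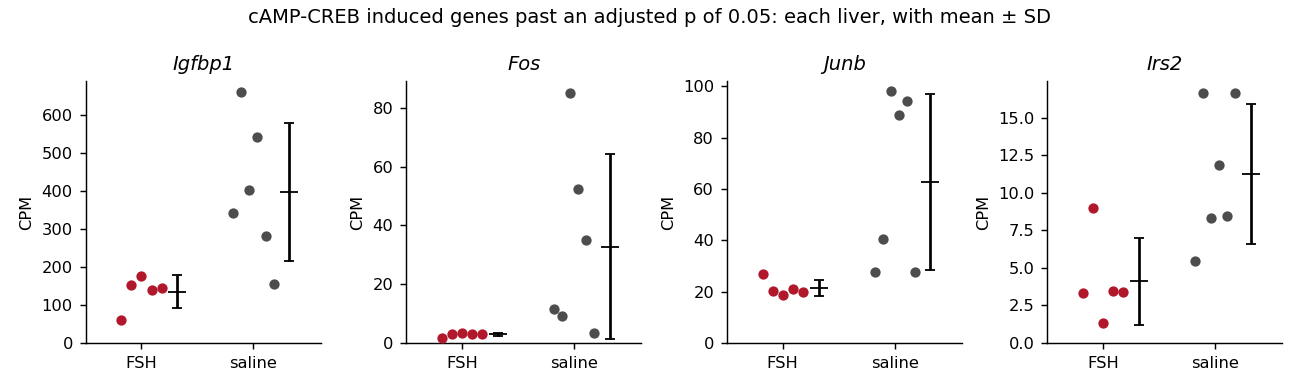
Level in CPM (vertical axis, from 0) of the 4 called genes that cAMP and CREB induce, in 5 FSH livers and 6 saline livers, with 1 point per liver and the mean ± SD beside the points. The FSH livers are low and close together for Fos, between 1.76 and 3.40 CPM, while the saline livers spread from 3.55 to 85.0 CPM.

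Genes that FSH raises in granulosa cells of the ovary were mostly at or near 0 in the liver. Of 17 listed, Cyp19a1, Cyp11a1, Has2 and Pgr had no read, and 6 were tested, 4 higher and 2 lower, with a median of 0.36. Star, which moves cholesterol into mitochondria for steroid synthesis, was the 1 called, against 6.19% of all genes called higher. Its mean was 1.01 CPM with FSH and 0.490 CPM with saline, so it passed the filter of 0.5 CPM only through the group where it was high. With a filter of 1 CPM it was not tested, and without a filter its adjusted p was 0.0341. It had 0.804, 0.959, 0.906, 1.16 and 1.23 CPM in the FSH livers and from 0.311 to 0.761 CPM in the saline livers, without overlap, on 114 reads in all. FSH minus saline came to 0.63 in log2 with a standard error of 0.18 (limma adjusted p = 0.0355). It was 0.97 with a pseudocount of 0.1 CPM, 0.44 with a pseudocount of 1 CPM and 1.01 in edgeR's test. The call was lost when any 1 of 9 of the 11 livers was left out, saline livers 4 and 5 being the exceptions, with adjusted p values up to 0.0809. Named after their values were seen, Fst, which encodes follistatin, had 6.63 and 3.57 CPM (limma adjusted p = 0.0505), and Ccnd2, a cyclin, 6.87 and 4.76 CPM (limma adjusted p = 0.0564). Fst was called with a pseudocount of 1 CPM, a filter of 1 CPM, TMM scaling and the replicate block, and without FSH liver 6 or saline liver 2. Ccnd2 was called with either scaling, in edgeR's test and without saline liver 1.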

How the data were processed

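Liver RNA from 5 FSH and 6 saline mice was sequenced by the study as paired reads. The authors deposited CPM values, in which the reads of all genes of a library sum to 1000000, unfiltered and with no scaling between libraries. The submitters' processing notes name FastQC 0.11.2, Trim Galore 0.3.3, cutadapt, STAR, RSEM and the build mm10. The annotation release and the use of strand are not given in the sources used here.

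The deposited CPM values of each library were whole multiples of 1 read for 100% of values (tolerance 0.01 read), which gave back the reads. Symbols were matched by identifier to GENCODE M21 (GRCm38) for 35555 of 36788 identifiers. The 12733 genes whose mean reached 0.5 CPM were tested with limma 3.58.1 in R 4.3.3 (log2(CPM + 0.5), intensity trend, Benjamini-Hochberg adjustment), and 1350 were called. The recovered reads went into edgeR 4.0.16 (quasi-likelihood), chosen after seeing the data, which called 1435. Single values were tested by exact permutation over 462 splits. Alternatives were other pseudocounts, filters and scalings, no trend, a replicate block and leaving out each library. The tests were tested on simulated data. No libraries of a group were duplicates (lowest mean chi-square per gene 11.2).

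The genes named are the 10 of the set, from each other list up to 5 called genes with the smallest p or, with none called, the 2 most abundant, and the 2 genes most alike to each tested gene. Others are named as chosen after their values were seen. The genes, lists and tests were chosen with earlier results of these data known. Lhb and Pde2a were not analysed here. The 95% intervals are limma's.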

Additional observations from a re-analysis of the deposited data

Results flagged for a closer look

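Of 53 groups of livers examined, 7 held 1 liver far from the others of its group by Dixon's criterion, which chance alone meets in about 1 group in 20. Among the saline livers, Gcgr was at 246.2 CPM in number 4 (169.1 to 193.7 CPM in the others), Crem at 29.4 CPM in number 3 (25.1 to 26.2 CPM) and Cga at 0.332 CPM in number 1 (0 to 0.0926 CPM). Among the FSH livers, Gnai2 was at 83.4 CPM in number 3 (97.3 to 102.8 CPM), Adcy6 at 24.3 CPM in number 2 (14.2 to 17.0 CPM), Fos at 1.76 CPM in number 1 (2.98 to 3.40 CPM) and Irs2 at 8.998 CPM in number 2 (1.30 to 3.49 CPM). The calls on Fos and Irs2 were kept in all 21 alternatives, which include leaving out these livers.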

How the results depend on the processing

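Of the set, Pde4b kept its direction in all 21 alternatives and its call in 11, with adjusted p from 0.0172 to 0.105. The 7 other tested genes were called in none. The number called was 0 without a filter on low values, without the intensity trend and with the replicate block, and 0 to 1 with a library left out (0 to 1 past 2-fold as well). For the other route genes it was 1 with either scaling and in edgeR's test, and 0 to 5 with a library left out. For the genes that cAMP and CREB induce it was 6 in edgeR's test, 5 with the replicate block (Dusp1 added) and 4 to 7 with a library left out, and Igfbp1, Fos, Junb and Irs2 were called in every alternative. For the granulosa cell genes it was 2 with a pseudocount of 1 CPM, 2 with median-of-ratios scaling, 3 with TMM, 2 in edgeR's test, 2 with the replicate block and 0 to 1 with a library left out. Uncalled values that changed sign were Arrb2 without FSH replicate 3 (range with a library left out -0.14 to 0.0238) and Sik3 without saline replicate 2 (-0.12 to 0.0076). The cause was not tested. The label numbers showed no clear pairing of the livers. Over 5 pairs the correlation of deviations ran from -0.0662 to 0.356, 2 exceeded 0.1, and 1 FSH liver was closest to its own number. So few pairs cannot exclude a pairing. With the block, on 10 libraries, the adjusted p was 0.0666 for Pde4b and 0.0937 for Pkig, and 1214 genes were called in all. The median of all genes moved from 0.02 to -0.002 with scaling. Depth limits the receptors, where 0 reads allow up to 0.278 CPM.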
